A study of Mus musculus with 8 samples.

Results

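The genes described here encode the machinery of cell division. They are mitotic kinases, the motor proteins of the kinesin family, proteins of the centromere, and the condensin and cohesin complexes that shape and hold chromosomes. They were chosen by gene symbol from the deposited probes. The rule took every symbol that starts with Kif and a digit, Cenp and a letter, Ncap, Smc and a digit, Bub or Aurk. It added 10 genes named singly. The rule found 57 genes with 95 probes among the 10944 named genes of the deposited data. Filters on probes before deposit are not given, so other genes of these families may be missing. Of the 10 single genes, 7 had a probe, and Ccnb1, Ccnb2 and Mki67 were not analysed here. Because the rule reads symbols, it also took in kinesins with roles outside division, such as motors that carry cargo, and these are described separately.

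The cells were primary hepatocytes of male C57Bl6/J mice, freed from the liver with collagenase. Of the 8 samples, 4 were controls and 4 were treated with metformin, a biguanide drug for diabetes, at 500 µM, and the labels give 24 h for both groups. Each sample was read on 1 Illumina bead array, which reports a brightness for each probe as a log2 intensity. The labels do not say whether replicates came from separate animals. The p-values compare the difference between the groups with the spread of samples within them, and this spread may be technical.

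Cells enter mitosis through the kinase Cdk1, which acts together with a cyclin. Aurora and Polo-like kinases then build the spindle, condensins compact the chromosomes, and the kinetochore, assembled on the centromere, ties each chromosome to microtubules. A checkpoint with Bub kinases delays separation until all are attached, after which Cdc20 switches on the ligase that destroys cyclins. Most of these genes are transcribed only in dividing cells. Hepatocytes of the adult liver rarely divide, and in culture they can re-enter the cycle when given growth factors.

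Levels lay between 4.16 and 14.4 log2 units over all probes, with an array median of 6.48. Of 9 measured hepatocyte markers, 7 lay above that median in both groups, among them the transthyretin gene Ttr (13.64 in controls and 13.68 with metformin) and Hnf4a (10.07 and 10.18). The probes of Alb (5.65 and 6.05) and Cps1 (6.45 and 6.26) lay below it. Metformin replicate 3 stood apart from the other metformin arrays for the division genes, as described below, and main results are given with and without it.

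Many genes of cell division fell with metformin in limma. Of the 14 kinesins with other roles 0 fell, which is near the share of all genes that fell, 3.44%. For the main test a limma model compared the 4 metformin with the 4 control arrays, and p-values were adjusted over all 10944 genes with a threshold of 0.05. Of the 57 members 21 fell and 1 rose, where 3.44% of all genes fell and 3.32% rose. The median change of the 57 was -0.71 log2 units against 0.010 over all genes. In these bulk samples, fewer dividing cells and less RNA of these genes per cell cannot be told apart.

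The 21 genes that fell all came from the 38 members listed here with a role in division. These are the kinases, Cdc20 and cyclin A, the checkpoint and passenger proteins, Top2a, the spindle kinesins, the centromere proteins and the condensins. Of these 38, 37 had a lower value with metformin, against 48.8% of all genes, and their median change was -0.92. All 4 metformin arrays lay below all 4 control arrays for 25 of the 38, which was the case for 7.57% of all genes. The other 19 members are kinesins with other roles, cohesin, the SMC5/6 complex and a centriole protein. Their median change was -0.043. Of these 19, 0 fell and 1 rose, where 3.44% of all genes fell and 3.32% rose. The difference between these sets was not tested. The split follows lists drawn up with earlier results of these data known. The 38 include Cenpb and Kif24, whose known roles lie at least partly outside mitosis, and neither of which passed. The 38 also include Cenps, which serves in DNA repair as well and fell, and Plk4, the kinase of centriole duplication, which did not pass. The other 19 in turn include cohesin, which holds sister chromatids together, and Kif2a, a microtubule depolymerase. A dimmer probe of the cohesin gene Smc1a fell in a limma fit of every probe (-0.85 ± 0.12, adjusted p = 0.0106). Among the 21 genes that fell, 14 changed at least 2-fold. In each of the 8 fits that left out 1 array, 5 of them passed the threshold, namely Cenps, Cenph, Cenpk, Kif18a and Kif18b.

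The count of genes that fell depended on single arrays. The share of all genes that fell also moved, and is given beside each count. Leaving out control replicate 2, control replicate 3 or metformin replicate 2 gave 7 members, with 1.18%, 0.996% and 0.914% of all genes. Leaving out control replicate 4 gave 8 (1.42% of all genes), and leaving out control replicate 1 gave 14 (3.59%). The count was 13 when metformin replicate 1 was left out (3.19%) and also when metformin replicate 3 was (0.950%). It was 25 when metformin replicate 4 was left out (2.85%). The median change of the 57 stayed between -0.73 and -0.54 in the same fits. When the replicate number was kept as a block, 26 members fell, among 4.08% of all genes, and 1 rose, among 4.41%. Of the 21 genes that fell, 8 did not pass without metformin replicate 3, and their values are given below with each gene.

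**Figure D1:**
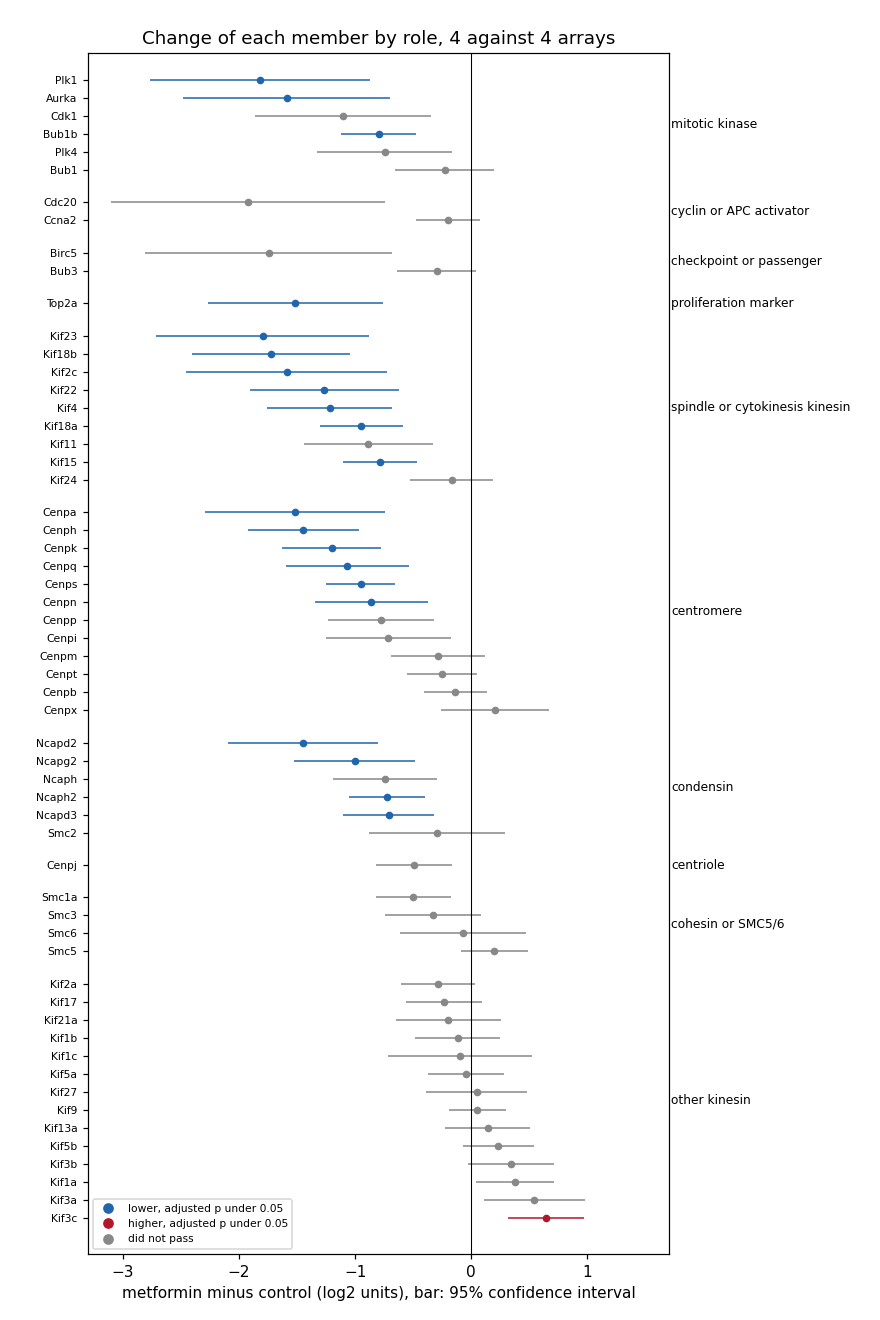
The change with metformin of each of the 57 members in log2 units (x axis), grouped by role, with its 95% confidence interval as a bar and n = 4 arrays per group. The 21 genes that fell, in blue, lie in the upper groups, while the kinesins with other roles at the bottom lie around 0 and hold Kif3c, the gene that rose, in red.

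Among the 6 measured mitotic kinases, Plk1, Aurka and Bub1b fell, and Cdk1, Plk4 and Bub1 did not pass. Plk1 encodes a Polo-like kinase needed for centrosomes, spindle and cytokinesis. Its level was 8.71, 9.04, 8.83 and 8.95 log2 units in control replicates 1 to 4, and 6.97, 7.76, 5.63 and 7.88 in metformin replicates 1 to 4. The groups did not overlap, and the metformin arrays were spread far more widely, with replicate 3 the lowest. The change was -1.82 ± 0.42 (SE, 3.53-fold lower, adjusted p = 0.0374), and -1.34 ± 0.22 without metformin replicate 3 (adjusted p = 0.0381). Aurka, the kinase of centrosome maturation, had 9.24, 9.63, 9.33 and 9.42 in controls and 7.72, 8.37, 6.50 and 8.67 with metformin. Every metformin array again lay below every control, with replicate 3 the lowest and replicate 4 the highest. Its change was -1.59 ± 0.40 (adjusted p = 0.0452), and -1.15 ± 0.22 without metformin replicate 3 (adjusted p = 0.0495).

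Bub1b encodes the checkpoint protein that holds back Cdc20. Control levels were 6.54, 6.65, 6.56 and 6.60, and metformin levels were 5.91, 5.85, 5.39 and 6.01. The groups were well separated against the spread of the controls, and the change was -0.80 ± 0.14 (adjusted p = 0.0167). With each array left out in turn, Plk1 and Aurka passed the threshold in 2 of 8 fits and Bub1b in 6, and the highest adjusted p was 0.109.

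Cdk1, the kinase that drives entry into mitosis, was at 10.45 ± 0.16 in controls and 9.35 ± 0.81 with metformin (mean ± SD, n = 4). Its metformin arrays all lay below its controls, with replicate 3, at 8.17, far below the others. The change of -1.10 ± 0.34 did not pass (adjusted p = 0.0829). Nor did it without metformin replicate 3 (-0.71 ± 0.16, adjusted p = 0.0716) or when blocked by replicate (0.0555). It passed in 0 of the 8 fits without 1 array. Plk4, the kinase of centriole duplication, had a change of -0.75 ± 0.26 (adjusted p = 0.114). Bub1, a checkpoint kinase, was read at 4.59 ± 0.41 in controls, near the lower end of the scale, with a change of -0.23 ± 0.19.

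Cdc20 and Birc5 had some of the largest differences and the widest spread. Cdc20, the activator of the anaphase ligase, had 9.16, 9.60, 8.82 and 9.47 in controls and 7.11, 8.03, 5.66 and 8.55 with metformin at its brightest probe. The groups did not overlap, and the metformin arrays were spread widely, from replicate 3 as the lowest to replicate 4 as the highest. The change was -1.92 ± 0.53 (3.79-fold lower), which missed the threshold (adjusted p = 0.0608) but passed when the replicate was a block (0.0183). It did not pass without metformin replicate 3 (-1.36 ± 0.33, adjusted p = 0.0842). Birc5, which encodes survivin of the chromosomal passenger complex, had a change of -1.74 ± 0.47 (adjusted p = 0.0590, and 0.0240 when blocked by replicate). Birc5 did not pass without metformin replicate 3 either (-1.27 ± 0.33, adjusted p = 0.0966). Its other probes are described below. Top2a, the topoisomerase that untangles sister chromosomes, fell from 9.18, 9.26, 8.94 and 8.96 in controls to 7.73, 7.83, 6.42 and 8.29 with metformin. All of its metformin arrays were below its controls, and the change was -1.52 ± 0.34 (adjusted p = 0.0321), or -1.14 ± 0.17 without metformin replicate 3 (adjusted p = 0.0297).

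Ccna2, the gene of cyclin A, had 1 probe, at 4.59 ± 0.17 in controls and 4.38 ± 0.11 with metformin (mean ± SD, n = 4). This is close to the lowest value of the table, and its change was -0.20 ± 0.12. Bub3, a checkpoint protein that recruits the Bub kinases, had overlapping groups and a change of -0.30 ± 0.15 (adjusted p = 0.267).

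**Figure D2:**
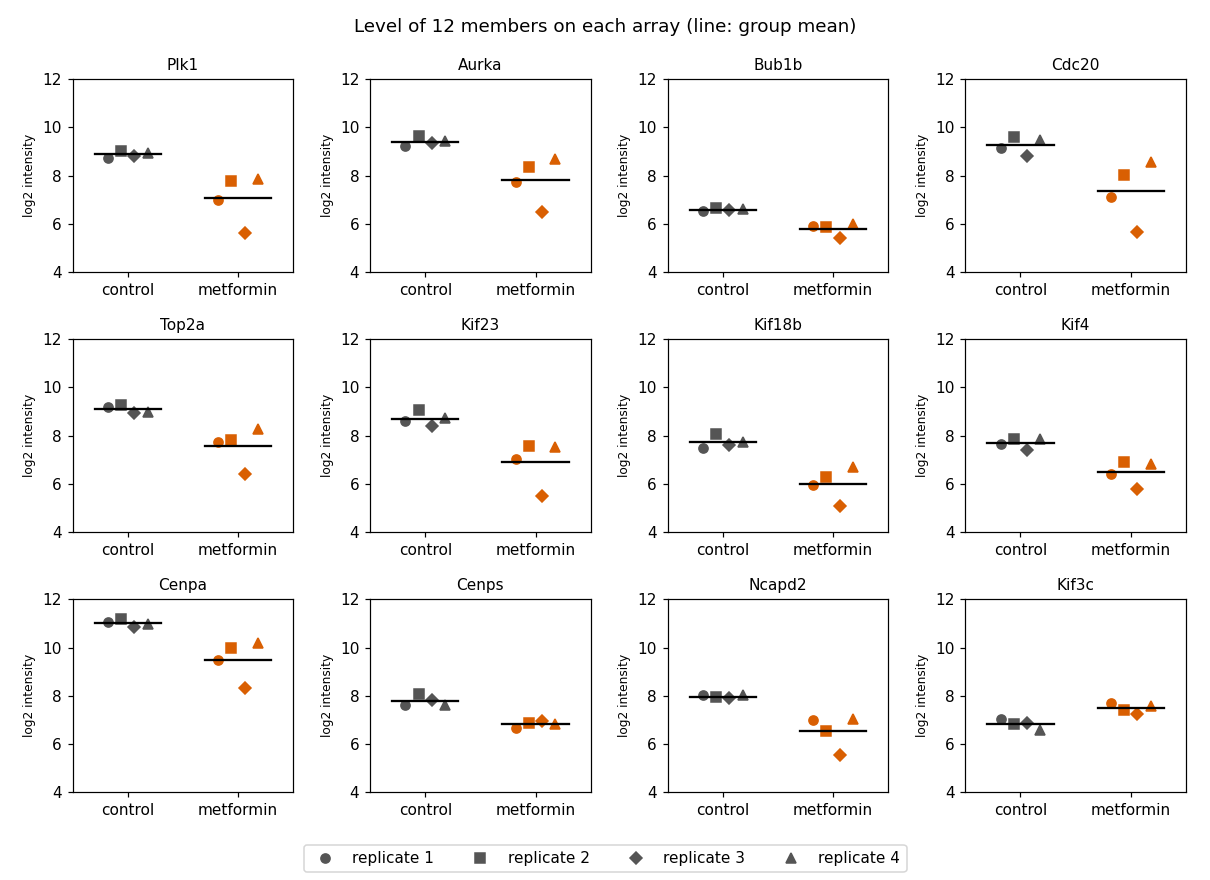
Levels of 12 members in log2 intensity (y axis) on each control (grey) and metformin (orange) array, with the replicate as the marker shape and the group mean as a line. Metformin replicate 3 (diamond) is the lowest array for the kinases, Cdc20, Top2a, the kinesins Kif23, Kif18b and Kif4, Cenpa and Ncapd2, but not for Cenps, and Kif3c is higher with metformin.

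Of the 9 measured kinesins of the spindle and of cytokinesis, 7 fell and the other two, Kif11 and Kif24, did not pass, and the median change of the 9 was -1.22. Kif18b, a motor that shortens astral microtubules, had 7.50, 8.07, 7.60 and 7.75 in controls and 5.95, 6.28, 5.09 and 6.71 with metformin. The groups were far apart, and the change of -1.72 ± 0.30 (3.30-fold lower, adjusted p = 0.0160) passed in all 8 fits without 1 array. Kif18a, which limits chromosome oscillation at the spindle centre, had 6.60, 6.59, 6.28 and 6.33 in controls and 5.40, 5.68, 5.15 and 5.79 with metformin. It also passed in all 8 fits, with a change of -0.95 ± 0.16 (adjusted p = 0.0146).

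Kif23, the kinesin of the central spindle, had 8.59, 9.05, 8.40 and 8.75 in controls and 7.03, 7.55, 5.49 and 7.53 with metformin. The largest part of its spread came from metformin replicate 3, without which the change of -1.80 ± 0.41 (adjusted p = 0.0349) became -1.33 ± 0.20 (adjusted p = 0.0286). Kif2c, which removes wrong attachments at the kinetochore, fell by 1.59 ± 0.39 log2 units (adjusted p = 0.0418), and its call was lost without metformin replicate 3 (-1.25 ± 0.32, adjusted p = 0.0937). The chromosome-arm motors Kif22 (-1.26 ± 0.29, adjusted p = 0.0349) and Kif4 (-1.22 ± 0.24, adjusted p = 0.0227) fell as well. Without metformin replicate 3, Kif22 did not pass (-0.99 ± 0.22, adjusted p = 0.0693). Kif15, which backs up Kif11 in holding the spindle poles apart, changed by -0.79 ± 0.14 (adjusted p = 0.0167), but by -0.33 with the mean of its probes (adjusted p = 0.112), with its other probe near the lower end of the scale. Without metformin replicate 3 it did not pass either (-0.71 ± 0.15, adjusted p = 0.0587). When 1 array at a time was left out, Kif2c, Kif22 and Kif23 passed in 2 fits and Kif15 and Kif4 in 6, and the highest adjusted p was 0.105.

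Kif11, the motor that separates the spindle poles, had overlapping levels of 5.81 ± 0.39 and 4.93 ± 0.43 (mean ± SD, n = 4). Its change was -0.89 ± 0.25 (adjusted p = 0.0635, and 0.0253 when blocked by replicate). It did not pass without metformin replicate 3 (-0.76 ± 0.26, adjusted p = 0.172). Kif24, listed with the spindle kinesins but known from centrioles and cilia, was at 4.79 in controls and had a change of -0.17 ± 0.16 that did not pass.

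The 14 kinesins of transport and other roles had a median change of 0.048, with 6 lower and 8 higher values. In limma 0 fell and 1 rose, near the shares of all genes that fell (3.44%) and rose (3.32%). An unadjusted p under 0.05 was found for 3, and for 23.8% of all genes. Kif3c, a subunit of a motor of cilia and axons, had 7.05, 6.83, 6.88 and 6.56 in controls and 7.69, 7.40, 7.22 and 7.58 with metformin. Its groups did not overlap, and the change was 0.64 ± 0.15 (1.56-fold, adjusted p = 0.0349). It passed in 1 of the fits without 1 array, not without metformin replicate 3 (0.73 ± 0.15, adjusted p = 0.0587), and not with the mean of its probes (0.47, adjusted p = 0.0811). The related genes Kif3a and Kif3b had changes in the same direction that did not pass. Kif3a went from 8.77 ± 0.43 to 9.32 ± 0.08 (mean ± SD, n = 4, adjusted p = 0.127), and Kif3b from 6.34 ± 0.26 to 6.68 ± 0.23 (adjusted p = 0.244). For 3 of the 14, Kif3c, Kif3a and Kif1a, all metformin arrays lay above all controls, as for 7.70% of all genes.

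Kif1b, a motor of mitochondria and synaptic vesicles, was at 9.28 in controls and 9.17 with metformin, with a change of -0.12 ± 0.16 and a 95% confidence interval from -0.48 to 0.25. Kif21a, a brake on microtubule growth, had 7.86 and 7.66 (interval from -0.65 to 0.26), and Kif2a, a microtubule depolymerase, 7.36 and 7.07 (interval from -0.61 to 0.031). In 6 of the 14 genes (Kif1a, Kif5a, Kif5b, Kif9, Kif17 and Kif27) the mean level lay below the 25th percentile of all genes, 4.94, and their changes ran from -0.23 to 0.38. Kif13a, a motor of endosomes, and Kif1c, a vesicle motor, had changes of 0.14 ± 0.16 and -0.099 ± 0.28.

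Of the 12 centromere genes 6 fell, and their median change was -0.82. Cenpa, the histone variant that marks the centromere, had 11.04, 11.17, 10.85 and 10.98 in controls and 9.46, 9.98, 8.33 and 10.19 with metformin. Every metformin array was below every control, with replicate 3 the lowest, and the change was -1.52 ± 0.34 (2.87-fold lower, adjusted p = 0.0349), or -1.13 ± 0.18 without metformin replicate 3 (adjusted p = 0.0381). Cenps, a histone-fold protein of the kinetochore that also serves in DNA repair, had 7.61, 8.05, 7.81 and 7.60 in controls. With metformin it had 6.65, 6.85, 6.93 and 6.83, so that here replicate 3 was the highest. The change of -0.95 ± 0.13 had the smallest adjusted p of the members (0.0105).

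Cenph and Cenpk, neighbours in the inner kinetochore, changed by -1.45 ± 0.21 (adjusted p = 0.0120) and -1.20 ± 0.19 (adjusted p = 0.0135). Together with Cenps they passed in all 8 fits without 1 array. A dimmer probe of Cenpk, at 4.33 in controls, had a change of 0.062 ± 0.10 that did not pass. With the mean of its probes Cenpk had a smaller change that still passed (-0.57, limma adjusted p = 0.0278). Cenpq, of another inner kinetochore complex, and Cenpn, which binds nucleosomes with Cenpa, fell by 1.07 ± 0.24 and 0.86 ± 0.22 log2 units (adjusted p = 0.0318 and 0.0475). Neither passed without metformin replicate 3, where Cenpq gave -0.94 ± 0.25 (adjusted p = 0.0966) and Cenpn -0.68 ± 0.19 (adjusted p = 0.114). Both passed in 1 of these fits and Cenpa in 2, where the highest adjusted p was 0.114. Cenpp, a partner of Cenpq, just missed the threshold (-0.78 ± 0.20, adjusted p = 0.0509) and passed with the replicate block (0.0357). It did not pass without metformin replicate 3 (-0.65 ± 0.20, adjusted p = 0.142).

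The other centromere genes did not pass. Cenpi had a change of -0.71 ± 0.24 (adjusted p = 0.107), Cenpt one of -0.25 ± 0.13 and Cenpm one of -0.29 ± 0.18. Cenpb, which binds satellite DNA, was at 9.76 ± 0.07 in controls and 9.62 ± 0.19 with metformin (mean ± SD, n = 4; interval of the change from -0.41 to 0.13). Cenpx, the partner of Cenps, was the exception in direction among the 38, with a change of 0.20 ± 0.21 (adjusted p = 0.593) and probes from -0.20 to 0.36. Cenpj, which despite its symbol builds centrioles and is counted outside the centromere genes, went from 5.93 ± 0.22 to 5.44 ± 0.19 (adjusted p = 0.0777).

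Condensins compact the chromosomes as mitosis begins. Of 6 measured subunits 4 fell, and all 6 had lower values, with a median change of -0.74. Ncapd2, a subunit of condensin I, had 8.02, 7.94, 7.88 and 8.02 in controls and 6.97, 6.54, 5.54 and 7.02 with metformin. Its controls were nearly identical, and the change was -1.45 ± 0.29 (2.73-fold lower, adjusted p = 0.0233), or -1.12 ± 0.15 without metformin replicate 3 (adjusted p = 0.0216). Its dimmer probes gave -0.52 and -0.33, and the mean of its probes did not pass (-0.76, adjusted p = 0.0675). Ncapg2, a subunit of condensin II, fell from 6.89 ± 0.29 to 5.89 ± 0.45 (mean ± SD, n = 4, limma adjusted p = 0.0368). The condensin II subunits Ncaph2 (-0.73 ± 0.15, adjusted p = 0.0243) and Ncapd3 (-0.71 ± 0.17, adjusted p = 0.0430) fell too. These 3 calls were lost without metformin replicate 3, where the changes were -0.97 ± 0.27 for Ncapg2 (adjusted p = 0.109), -0.60 ± 0.12 for Ncaph2 (adjusted p = 0.0573) and -0.62 ± 0.18 for Ncapd3 (adjusted p = 0.130). One probe of Ncaph2 went against the others, at 0.16. Ncaph, of condensin I, had groups that did not overlap but missed the threshold (-0.74 ± 0.20, adjusted p = 0.0566, and 0.0467 when blocked by replicate). It did not pass without metformin replicate 3 (-0.54 ± 0.13, adjusted p = 0.0845). With each array left out in turn, Ncapd2 passed in 4 fits, Ncapg2 and Ncaph2 in 3 and Ncapd3 in 1, and the highest adjusted p was 0.130. Smc2, a core subunit of both condensins, lay near the lower end of the scale (4.89 in controls), with a change of -0.29 ± 0.26.

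Cohesin, which holds sister chromatids together and also folds chromosomes in cells that do not divide, was measured with Smc1a and Smc3. Smc1a had 10.03, 9.56, 9.73 and 9.65 in controls and 9.15, 9.29, 9.06 and 9.49 with metformin. These groups lay close together without overlap, and the change of -0.50 ± 0.14 did not pass at this probe (adjusted p = 0.0705). Smc3 had a change of -0.33 ± 0.19 with overlapping groups. Of the SMC5/6 complex of DNA repair, Smc5 had a change of 0.20 ± 0.13 and Smc6 one of -0.070 ± 0.24, and neither passed.

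The size of the difference varied between the metformin samples. Averaged over the 38 division genes, the level minus the control mean was -1.53 log2 units on metformin replicate 3, against -1.02 on replicate 1, -0.66 on replicate 2 and -0.61 on replicate 4. The control arrays lay between -0.096 and 0.13. Metformin replicate 3 was the lowest metformin array for 29 of the 38 genes, against 20.2% of all genes. The median SD of these genes was 0.43 among metformin arrays and 0.23 among controls, while over all genes it was 0.20 and 0.23. For the 14 kinesins with other roles the same array lay at 0.15, the highest of the 4 metformin arrays, whose values began at 0.016. Without metformin replicate 3, 37 of the 38 still had a lower value, their median change was -0.74, and 13 fell, among 0.950% of all genes.

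Arrays with the same replicate number deviated together, so differences within each number were also taken. The median difference over the 38 was -0.98 in replicate 1, -0.83 in replicate 2, -1.28 in replicate 3 and -0.63 in replicate 4. In 30 of the 38 all 4 differences were negative, against 15.6% of all genes, and in 0 all were positive, against 18.2% of all genes. What sets metformin replicate 3 apart was not tested.

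**Figure D3:**
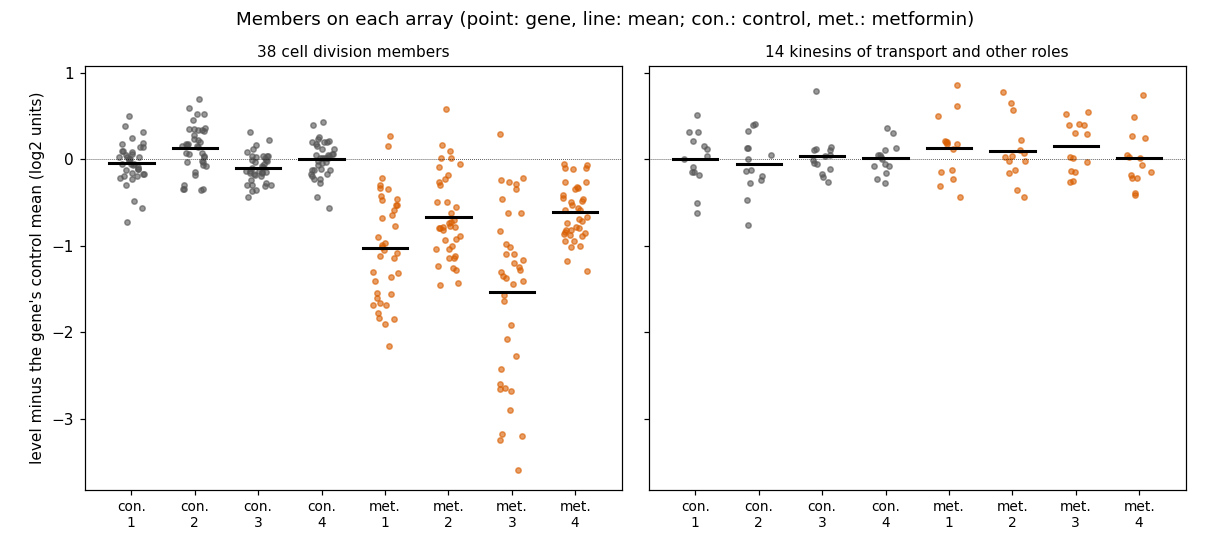
Level of each gene minus its own control mean in log2 units (y axis) on each of the 8 arrays, for the 38 division genes (left) and the 14 kinesins with other roles (right), with a point per gene and the mean as a line. The division genes average between -1.53 and -0.61 on the metformin arrays, and the other kinesins between 0.016 and 0.15.

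Several genes had more than 1 probe, and the probes give a separate reading of the same RNA. In a fit of all 16304 probes, 32 of the 95 member probes fell and 1 rose, where 2.93% and 2.72% of all probes did, and they belonged to 25 genes that fell. These include Cdc20, Birc5, Smc1a and Cenpm, whose brightest probes missed the threshold. The other probes of Cdc20 had changes of -2.32 ± 0.48, -2.23 ± 0.37 and -1.36 ± 0.31, and all of them passed (adjusted p = 0.0277, 0.0146 and 0.0371). For Birc5 the third probe passed (-1.87 ± 0.41, adjusted p = 0.0311) and the second just missed (-1.39 ± 0.36, adjusted p = 0.0529). So the call of Cdc20 and of Birc5 depended on which probe stood for the gene, while the direction was the same at every probe. With the mean of the probes both genes passed (adjusted p = 0.0267 and 0.0426). The probes of Smc1a ran from -0.85 ± 0.12 (adjusted p = 0.0106) to 0.077 at the dimmest, and 1 probe of Cenpm gave -0.83 ± 0.18 (adjusted p = 0.0319). Probes of Kif18b (-1.72, -1.29 and -1.17) and Kif4 (-1.22, -1.21 and -1.47) gave like values.

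**Figure D4:**
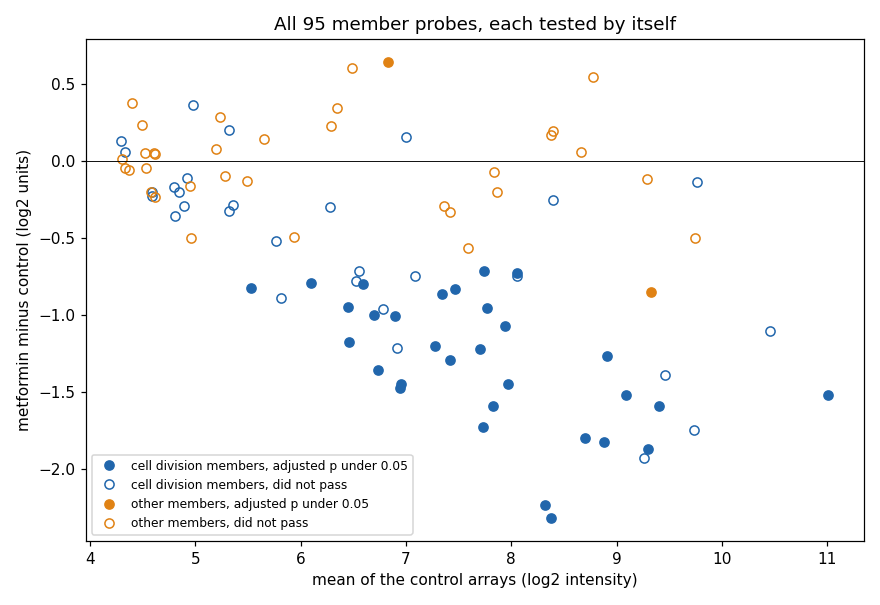
Change with metformin in log2 units (y axis) of each of the 95 member probes against its mean level in the controls in log2 intensity (x axis), with probes past the threshold filled. The changes below -1 all belong to division genes, at probes with a control level of 6.46 or more.

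Other genes of mitosis, which the rule did not take in, also fell. Of 62 listed, 38 were measured. In limma 17 fell and 0 rose (3.44% and 3.32% of all genes), with a median change of -1.03, and 37 had lower values. The list was drawn up with earlier results of these data known, so these counts are not independent support for those of the members. The smallest adjusted p belonged to Cdca5, the cohesin protector sororin (-1.25 ± 0.15, adjusted p = 0.00642), and Mybl2, a transcription factor of division genes (-1.71 ± 0.20, adjusted p = 0.00642). The passenger protein Incenp (-1.08 ± 0.17), Cdca2 (-1.57 ± 0.25), the separase Espl1 (-1.63 ± 0.27) and the kinetochore protein Ska3 (-1.04 ± 0.18) followed. These 6 passed in all 8 fits without 1 array. The checkpoint kinase Ttk (-1.05), the spindle pole protein Aspm (-1.38), Bora, a cofactor in Plk1 activation (-0.82), the kinetochore protein Ndc80 (-1.25), Cdca3 (-1.74) and Gtse1 (-1.18) also fell, and passed in 4 to 6 of these fits. The probes of Mybl2 ran from -1.71 to -0.36, those of Cdca3 from -1.74 to -0.79 and those of Gtse1 from -1.27 to 0.16. For each of these genes only 1 probe fell in the limma fit of every probe. Blocked by replicate, 26 of the 38 fell (4.08% of all genes). Leaving out control replicate 2 gave 7 (1.18%) and leaving out metformin replicate 3 gave 10 (0.950%). The count was 9 when control replicate 3 (0.996%), control replicate 4 (1.42%) or metformin replicate 2 (0.914%) was left out. Metformin replicate 3 was the lowest metformin array for 33 of the 38.

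Markers of liver cell types were set beside these results. Of 56 markers in 6 lists, 41 were measured. In limma 0 of them passed the threshold, where 3.44% of all genes fell and 3.32% rose. An unadjusted limma p under 0.05 was found for Lyve1, Tek and Sox9, and for 23.8% of all genes. Blocked by replicate, 5 markers passed, where 4.08% of all genes fell and 4.41% rose. The endothelial markers Stab2 (0.54, adjusted p = 0.0450), Lyve1 (1.28, adjusted p = 0.0420) and Tek (0.85, adjusted p = 0.0406) and the cholangiocyte marker Krt19 (0.91, adjusted p = 0.0185) were higher. The Kupffer cell marker Vsig4 was lower (-0.81, adjusted p = 0.0408). The summed level of 9 hepatocyte markers ran from 14.66 to 15.10 log2 units over the controls and from 14.69 to 15.09 over the metformin arrays, and on metformin replicate 3 it was 14.91. The sum of 8 stellate cell and fibroblast markers ran from 11.22 to 12.09 and from 11.27 to 12.23, with 11.48 on metformin replicate 3. Its largest part was Dcn (11.08 and 11.21), while Col1a1 (5.38 and 4.88) and Col1a2 (4.65 and 4.63) were dim.

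For 10 sinusoidal endothelial markers the sums were 9.57 to 10.72 and 9.51 to 11.48, with all 10 changes positive and a median of 0.38. Lyve1 had the largest, at 1.28 ± 0.44 (adjusted p = 0.113). The sums of 7 Kupffer cell and macrophage markers were 8.65 to 10.28 and 8.34 to 9.85, of 3 cholangiocyte markers 8.52 to 9.44 and 9.01 to 10.05, and of 4 leukocyte markers 6.36 to 7.43 and 6.49 to 6.57. Of the Kupffer cell and macrophage markers, Clec4f (4.50 and 4.62) and Cd163 (4.37 and 4.34) were near the lower end of the scale and C1qa was at 5.67 and 5.54. Adgre1 (7.37 and 6.94), Marco (6.85 with metformin), Vsig4 (7.16 and 6.35) and C1qb (7.52 and 6.97) had higher levels in controls than the array median. Of 8 listed cholangiocyte markers 3 were measured, and of 8 listed leukocyte markers 4. Among these 4 leukocyte markers, 3 had a mean level below the 25th percentile of all genes, so their sum says little about leukocytes. The pan-leukocyte gene Ptprc was at 4.52 and 4.44. On metformin replicate 3 the endothelial sum was 10.36, the Kupffer sum 9.46, the cholangiocyte sum 9.38 and the leukocyte sum 6.54, all within the range of the other metformin arrays. The median changes were 0.91 for cholangiocyte, -0.16 for Kupffer cell and -0.25 for leukocyte markers. The part of these cell types in the result was not tested.

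Promoters of the members are described here as background. Many promoters of mitotic genes are known to hold CCAAT boxes, which bind the factor NF-Y, and a cell cycle homology region with the letters TTTGAA, which binds a repressor and activator complex of the cell cycle. RefSeq windows of the GRCm38.p6 build, from 250 bases before to 50 bases after the start of transcription, were matched by symbol for 54 of the 57 members. They were searched on both strands for CCAAT, read as ATTGG on the other strand, and for TTTGAA, read as TTCAAA on the other strand, or TTCGAA. The motifs were searched separately, so that matches of different motifs could share letters. The sequences printed are those of the members with the smallest p past the threshold whose window holds both motifs, with the matches in capitals, written 5′ to 3′ on the strand of the gene.
Kif18b: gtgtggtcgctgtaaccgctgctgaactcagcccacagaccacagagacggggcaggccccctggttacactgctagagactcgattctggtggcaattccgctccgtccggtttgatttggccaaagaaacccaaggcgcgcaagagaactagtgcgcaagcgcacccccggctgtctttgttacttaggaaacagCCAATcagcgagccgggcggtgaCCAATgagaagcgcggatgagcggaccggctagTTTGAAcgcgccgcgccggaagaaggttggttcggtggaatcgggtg
Bub1b: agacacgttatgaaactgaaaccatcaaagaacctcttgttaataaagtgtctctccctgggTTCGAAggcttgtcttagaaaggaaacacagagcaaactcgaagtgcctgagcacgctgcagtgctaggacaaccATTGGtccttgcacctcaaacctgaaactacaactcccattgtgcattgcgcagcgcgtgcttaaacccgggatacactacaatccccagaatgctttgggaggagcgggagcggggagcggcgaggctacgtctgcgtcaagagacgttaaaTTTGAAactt
Kif4: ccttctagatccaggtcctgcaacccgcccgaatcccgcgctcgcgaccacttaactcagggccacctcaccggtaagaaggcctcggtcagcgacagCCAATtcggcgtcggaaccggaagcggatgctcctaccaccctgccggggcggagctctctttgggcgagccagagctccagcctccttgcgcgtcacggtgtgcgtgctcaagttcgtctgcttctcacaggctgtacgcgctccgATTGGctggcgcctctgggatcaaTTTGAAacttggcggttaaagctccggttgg
Ncapd2: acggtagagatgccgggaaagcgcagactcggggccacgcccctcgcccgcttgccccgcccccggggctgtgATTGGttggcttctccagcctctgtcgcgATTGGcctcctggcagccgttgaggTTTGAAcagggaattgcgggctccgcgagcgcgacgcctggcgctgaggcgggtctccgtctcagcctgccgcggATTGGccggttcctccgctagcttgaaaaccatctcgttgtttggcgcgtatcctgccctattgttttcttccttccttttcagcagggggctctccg

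The window of Kif18b is chr11:102925075-102925374 on the minus strand, with CCAAT at 53 and 30 bases before the start and TTTGAA at base 4 after it. That of Bub1b is chr2:118597961-118598260 on the plus strand, with ATTGG at 113 bases before the start, TTCGAA at 188 bases before it and TTTGAA at base 41 after it. The window of Kif4, chrX:100625815-100626114 on the plus strand, holds CCAAT at 152 and ATTGG at 5 bases before the start and TTTGAA at base 20 after it. In Ncapd2, chr6:125191537-125191836 on the minus strand, ATTGG lies at 177, 148 and 48 bases before the start and TTTGAA at 123 bases before it.

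Of the 42 windows of 37 division genes, 28 (66.7%) held CCAAT, 25 (59.5%) held the homology region letters and 20 (47.6%) held both. Over all 32851 windows the shares were 37.4%, 19.2% and 7.52%. Of the 24 windows of the 21 genes that fell, 16 held CCAAT, 16 the homology region letters and 11 (45.8%) both. Among the 16 windows of 12 kinesins with other roles, 5 held CCAAT, 2 the homology region letters and 1 (6.25%) both. Cenps, Cenph, Cenpk and Kif18a had smaller p-values in limma than the genes printed, and Kif15 a smaller one than Bub1b. They were not printed because no window of theirs held both motifs. The division genes were chosen as genes of mitosis, so these shares do not describe a response to metformin, and a link to it was not tested. A match of letters is a description and does not show that a factor was bound in these cells.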

How the data were processed

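Biotin-labelled total RNA was read on Illumina bead arrays, per the labels. The authors deposited log2 intensities. The submitters' processing notes name limma 3.26.9 and R 3.2.3 without their roles, and the background correction, normalization and probe filters are not given in the sources used here. Array by array, the medians lay within 0.00080 log2 units of each other, and nothing was normalized further. The number of arrays limits the precision.

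Of 16304 probes 15301 had a symbol in the platform table, updated through RefSeq (GRCm38.p6). The brightest probe stood for each of 10944 genes. limma 3.58.1 under R 4.3.3 compared the groups without covariates, two-sided, with Benjamini-Hochberg adjustment over all genes, and was tested on simulated data. Changes are given ± SE. Every member could be named, and of the other mitotic genes the 12 with the smallest p past the threshold. The members follow a rule on symbols, and this rule and the lists were drawn up with earlier results of these data known.

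Deviations of same-numbered control and metformin arrays from their group means correlated (0.32, 0.28, 0.15 and 0.23), and on that basis alone the numbers were read as pairs. Alternatives were the mean of probes, every probe, 2 filters on dim genes, quantile normalization, an offset of 16, 2 variance models, array weights, the replicate block, platform symbols and each array left out.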

Additional observations from a re-analysis of the deposited data

Results flagged for a closer look

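A level that stood far from the other 3 arrays of its group, judged by the gap to its neighbour over the range of the group, was found for 5 of 114 groups of 4 arrays, and about 1 in 20 such groups is found by chance. Ncapg2 was at 6.46 in control replicate 4, below 6.98 to 7.06 in the other controls. Cenpi was at 7.06 in control replicate 1, above 6.32 to 6.44 in the others. The other 3 values belonged to dim probes: Kif17 at 5.03 in control replicate 2 (others 4.47 to 4.50), Smc2 at 5.06 in metformin replicate 2 (others 4.43 to 4.47) and Bub1 at 4.53 in metformin replicate 4 (others 4.29 to 4.33). None of these 5 values came from metformin replicate 3.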

How the results depend on the processing

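The median change of the members was negative in all 19 alternatives, from -0.91 with the lower 50% of genes left out to -0.47 with the mean of probes. With all arrays in, the number of members that fell was 20 to 26. Without 1 array it was 7 to 25, and that of members that rose 0 to 1, since Kif3c passed only without control replicate 1. The mean of probes also gave 0 members that rose. Of the other mitotic genes, 7 to 21 fell without 1 array, and 26 with the replicate block. No call of a member was lost with the replicate block, which added Cdc20, Birc5, Cenpp, Kif11 and Ncaph. None of these added genes passed without metformin replicate 3. Among members, signs turned for 5 genes, none of which passed in any alternative. With each array left out in turn, Kif27 lay between -0.040 and 0.22 (below 0 in 4 of 8 fits, the others being -0.033, -0.023 and -0.011), Smc6 between -0.30 and 0.11 (above 0 in 3 fits, also 0.0016 and 0.0029), Kif1c between -0.35 and 0.17, and Kif5a between -0.10 and 0.092. Kif1b was at 0.072 with the mean of probes and Kif5a at 0.013 with array weights. Dim probes limit what can be seen: 4 of the 38 division genes (Ccna2, Bub1, Smc2 and Kif24) lay below the 25th percentile, and none of these passed. The cause of the spread between arrays was not tested.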
